A study of Mus musculus with 8 samples.

Results

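The genes described here are the ligands, receptors and binding proteins of the insulin-like growth factor (IGF) system. They were chosen by symbol: *Igf1*, *Igf2*, *Igf1r*, *Igf2r*, *Igfbp2*, *Igfbp3*, *Igfbp4*, *Igfbp5*, *Igfbp6* and *Igfbp7*, which are 10 of the 15880 genes in the deposited table. Bone stroma was taken from newborn C57BL/6 pups (P1) heterozygous for *Nes-Gfp*, a transgene in which rat nestin regulatory elements drive GFP. Cells without CD45, CD31 and Ter119 on their surface were sorted by GFP and by surface Pdgfrα into 4 populations: GFP+ Pdgfrα+, GFP- Pdgfrα+, GFP+ Pdgfrα- and GFP- Pdgfrα-. Each population has 2 RNA-seq libraries, and a library came from bones of 3 pooled pups and 15000 to 80000 sorted cells. GFP here marks activity of the transgene, and all 4 groups carry it.

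IGF1 and IGF2 are secreted peptides that signal through the receptor tyrosine kinase IGF1R. IGF2R, which also carries mannose 6-phosphate tagged enzymes to lysosomes, takes up IGF2 and delivers it for breakdown. IGFBP2 to IGFBP6 bind both ligands with high affinity and IGFBP7 binds them weakly, and in bone these proteins and the proteases that cut them set how much ligand reaches its receptor.

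Levels are given as the normalized signal of the deposited table, in which 0.5 is added to a gene's reads, the sum is scaled per 1e6 of library size after normalization, and gene length is not divided out. A level of 3 reads, the floor used here for each library, was 0.825 to 1.04. Differences are on the scale log2(signal + 1) and come from a single limma fit of all 8 libraries, with p-values adjusted over 15880 genes and a difference called at an adjusted p of at most 0.05. An exact permutation of 2 against 2 libraries cannot give a two-sided p below 0.333, so these tests rest on a spread that limma shares between genes. In bulk libraries, fewer cells of a type and less RNA per cell cannot be told apart. The median difference of all genes was 0.15 to 0.20 in the comparisons against GFP- Pdgfrα- cells and became -0.30 to -0.28 when each library was centred on its median. Between GFP+ Pdgfrα+ and GFP+ Pdgfrα- cells it moved from -0.02 to -0.30 when libraries were rescaled without mitochondrially encoded genes, which took 13% and 13.7% of reads for GFP+ Pdgfrα+ cells, 14.5% in both GFP- Pdgfrα+ libraries, 24.2% and 22.2% for GFP+ Pdgfrα- cells and 36.9% and 39.1% for GFP- Pdgfrα- cells. Relative to that median, the called differences of the 10 genes against GFP- Pdgfrα- cells were 0.62 to 6.77.

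**Figure D1:**
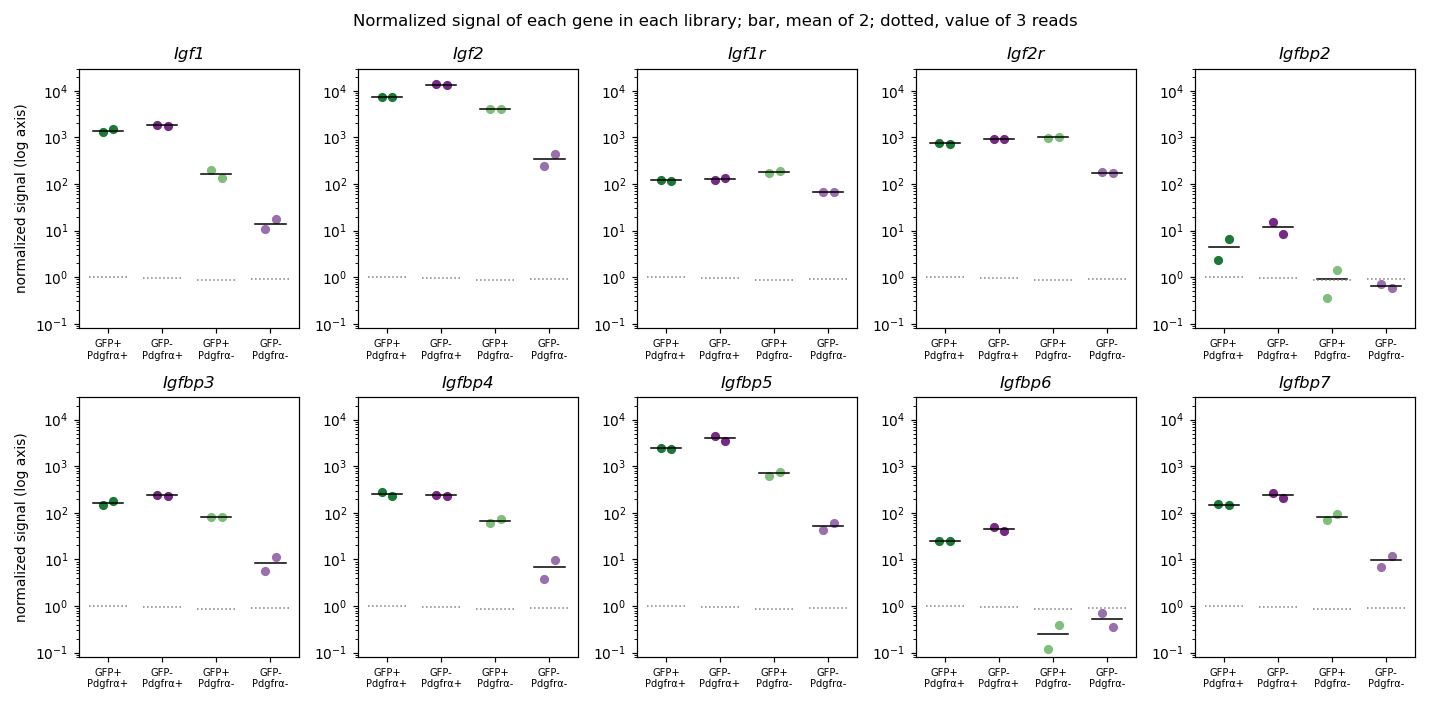
Normalized signal of the 10 genes in each library on a log axis, with the mean of 2 libraries as a bar. The dotted line is the value of 3 reads.

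*Igf2* encodes the ligand of fetal growth (ENSMUSG00000048583; chromosome 7, 149836673 to 149852721, minus strand, NCBIM37). Its signal was 13853 and 12997 for GFP- Pdgfrα+ cells, 7272 and 7468 for GFP+ Pdgfrα+ cells, 4104 and 4091 for GFP+ Pdgfrα- cells and 244.6 and 437.8 for GFP- Pdgfrα- cells. No libraries of different populations overlapped, and GFP- Pdgfrα+ cells had the most *Igf2* and GFP- Pdgfrα- cells the least. Mean signal in GFP- Pdgfrα+ cells was 1.82-fold that of GFP+ Pdgfrα+ cells and 39.4-fold that of GFP- Pdgfrα- cells. The log2 difference of GFP+ Pdgfrα+ against GFP- Pdgfrα+ cells was -0.86 (standard error 0.21, limma adjusted p = 0.0310), with both GFP+ Pdgfrα+ libraries below both GFP- Pdgfrα+ libraries. This call was lost when any 1 of the 6 libraries of the GFP+ Pdgfrα+, GFP- Pdgfrα+ and GFP+ Pdgfrα- populations was left out (limma adjusted p = 0.0852 to 0.213), with a pseudocount of 0.1 (0.0541) or without the mean-variance trend (0.178), and over all alternatives the adjusted p of the limma and edgeR fits ran from 0.000108 to 0.213. GFP+ Pdgfrα+ cells had more *Igf2* than GFP+ Pdgfrα- cells by 0.85 (standard error 0.21, limma adjusted p = 0.0107), a direction that flipped to -0.04 under quantile normalization. Relative to the median of all genes that last difference was 0.87, and it was 0.84 without mitochondrially encoded genes and 0.03 under quantile normalization. Leaving out any 1 library of the GFP+ Pdgfrα+ or GFP+ Pdgfrα- cells gave a limma adjusted p of 0.0530 to 0.0848, and rescaling without mitochondrially encoded genes gave a difference of 0.54 that was not called (limma adjusted p = 0.0549), within a range of 5.21e-05 to 0.911 over all alternatives. The difference of GFP+ Pdgfrα+ against GFP+ Pdgfrα- cells was also not called without the mean-variance trend (limma adjusted p = 0.0818). GFP+ Pdgfrα- cells in turn exceeded GFP- Pdgfrα- cells by 3.64 (standard error 0.21, limma adjusted p = 3.39e-08). All neighbours in the order GFP- Pdgfrα+, GFP+ Pdgfrα+, GFP+ Pdgfrα-, GFP- Pdgfrα- therefore passed the threshold, the first pairs with the exceptions given.

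*Igf1* encodes the ligand that growth hormone induces (ENSMUSG00000020053; chromosome 10, 87321010 to 87399792, plus strand). It had a signal of 1826 and 1782 for GFP- Pdgfrα+ cells, 1277 and 1524 for GFP+ Pdgfrα+ cells, 199.5 and 134 for GFP+ Pdgfrα- cells and 10.8 and 17.3 for GFP- Pdgfrα- cells. The Pdgfrα+ libraries were high and the Pdgfrα- libraries low, and no populations overlapped. The GFP+ Pdgfrα+ mean was 8.40-fold the GFP+ Pdgfrα- mean (log2 difference 3.08, standard error 0.22, limma adjusted p = 1.56e-06), higher in 2 of 2 libraries. *Igf1* in GFP+ Pdgfrα- cells was 11.9-fold that in GFP- Pdgfrα- cells (log2 difference 3.49, limma adjusted p = 6.75e-08). The Pdgfrα+ populations, first and second in the order, did not pass the threshold against each other (log2 difference -0.37, 95% interval -0.84 to 0.10, limma adjusted p = 0.403).

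Per kb of the longest transcript, the scale used here to compare genes, *Igf2* exceeded *Igf1* in each of the 8 libraries. The ratio of *Igf2* to *Igf1* per kb was 8.59 and 7.39 for GFP+ Pdgfrα+ cells, 11.4 and 11 for GFP- Pdgfrα+ cells, 31.0 and 46.0 for GFP+ Pdgfrα- cells and 34.2 and 38.1 for GFP- Pdgfrα- cells. Both Pdgfrα- populations thus had a ligand mix with less *Igf1* than the Pdgfrα+ populations. By signal per kb, *Igf2* ranked 13 and 14 among all genes for GFP+ Pdgfrα+ cells, 10 in both GFP- Pdgfrα+ libraries, 31 and 19 for GFP+ Pdgfrα- cells and 1004 and 479 for GFP- Pdgfrα- cells. It was among the most abundant transcripts of the table in the other 3 populations and ranked lower in GFP- Pdgfrα- cells.

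*Igf1r* encodes the signalling receptor (ENSMUSG00000005533; chromosome 7, 75097713 to 75371484, plus strand). Its signal was 170.8 and 193 for GFP+ Pdgfrα- cells, 119 and 134 for GFP- Pdgfrα+ cells, 124 and 118 for GFP+ Pdgfrα+ cells and 67.9 and 67.3 for GFP- Pdgfrα- cells. GFP+ Pdgfrα- libraries were the highest and GFP- Pdgfrα- libraries the lowest, while the Pdgfrα+ populations overlapped. The order differed from that of the ligands in that GFP+ Pdgfrα- cells came first. *Igf1r* was lower in GFP+ Pdgfrα+ cells than in the GFP+ Pdgfrα- population, with a log2 difference of -0.59 (standard error 0.14, limma adjusted p = 0.00847). Without the mean-variance trend this difference was not called (limma adjusted p = 0.0747). That call was lost without replicate 2 of GFP+ Pdgfrα+ cells (limma adjusted p = 0.0509) or replicate 2 of GFP+ Pdgfrα- cells (0.0784), in a range of 0.000518 to 0.0784 over the alternatives. GFP+ Pdgfrα- cells had more than GFP- Pdgfrα+ cells by 0.52 (limma adjusted p = 0.0135), which was 0.44 (limma adjusted p = 0.111) without replicate 1 of GFP- Pdgfrα+ cells and 0.43 (0.105) without replicate 2 of GFP+ Pdgfrα- cells, and the call was also lost without the mean-variance trend (0.0946), in a range of 0.000804 to 0.111. The GFP+ Pdgfrα+ and GFP- Pdgfrα+ cells were not called apart (log2 difference -0.06, 95% interval -0.36 to 0.24, limma adjusted p = 0.863). GFP+ Pdgfrα+ cells exceeded GFP- Pdgfrα- cells by 0.83 (limma adjusted p = 0.000243), or 1.78-fold in the means, and 58% of all genes had a larger difference. Under median centring it was 0.34 (limma adjusted p = 0.0488), and relative to the median of all genes 0.62 as in the main fit, in a range of 0.000199 to 0.0488 over the alternatives.

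*Igf2r* encodes the receptor that clears IGF2 (ENSMUSG00000023830; chromosome 17, 12875272 to 12962530, minus strand). Signal was 965 and 1023 for GFP+ Pdgfrα- cells, 934 and 941 for GFP- Pdgfrα+ cells, 767 and 726 for GFP+ Pdgfrα+ cells and 182 and 169 for GFP- Pdgfrα- cells. The GFP- Pdgfrα- libraries stood apart at the low end, and the other 3 populations lay close together without overlap. GFP+ Pdgfrα+ cells exceeded GFP- Pdgfrα- cells by a log2 difference of 2.08 (standard error 0.11, limma adjusted p = 1.16e-08). GFP+ Pdgfrα- cells did not pass the threshold against GFP- Pdgfrα+ cells (log2 difference 0.08, 95% interval -0.16 to 0.32, limma adjusted p = 0.626), but this difference was called at 0.54 under quantile normalization. Without mitochondrially encoded genes it was 0.37 and called, but there the median of all genes moved from 0.03 to 0.28, and relative to it the difference went from 0.05 to 0.09. Nor did GFP+ Pdgfrα+ cells pass it against GFP- Pdgfrα+ cells (log2 difference -0.33, limma adjusted p = 0.118), although voom called this pair (-0.32, limma adjusted p = 0.0266), in a range of 0.0266 to 0.428. The outer pair of these 3 was called, with GFP+ Pdgfrα+ cells lower than GFP+ Pdgfrα- cells by a log2 difference of -0.41 (standard error 0.11, limma adjusted p = 0.0169). Without replicate 2 of GFP+ Pdgfrα+ cells, or replicate 1 or 2 of GFP+ Pdgfrα- cells, the limma adjusted p of that pair was 0.0888, 0.0579 or 0.103, and that of edgeR was 0.0522, in a range of 0.000399 to 0.169 over the alternatives. The ratio of *Igf2r* to *Igf1r* per kb was 2.92 and 2.90 for GFP+ Pdgfrα+ cells, 3.69 and 3.31 for GFP- Pdgfrα+ cells, 2.66 and 2.49 for GFP+ Pdgfrα- cells and 1.26 and 1.18 for GFP- Pdgfrα- cells. The clearing receptor was the more abundant of the pair per kb in each library, by the least in GFP- Pdgfrα- cells.

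*Igfbp5* encodes a binding protein that attaches to bone matrix (ENSMUSG00000026185; chromosome 1, 72904506 to 72921458, minus strand). Signal was 4513 and 3549 for GFP- Pdgfrα+ cells, 2505 and 2328 for GFP+ Pdgfrα+ cells, 632 and 770.1 for GFP+ Pdgfrα- cells and 43.5 and 60.2 for GFP- Pdgfrα- cells. All populations were separate, and of the 6 binding protein genes *Igfbp5* had the highest signal per kb in each library, narrowly so in replicate 2 of GFP- Pdgfrα- cells (10.03 against 10.01 for *Igfbp7*). Its log2 difference of GFP+ Pdgfrα+ against GFP- Pdgfrα+ cells was -0.73 (standard error 0.17, limma adjusted p = 0.0278). As for *Igf2*, that call was lost without any 1 of the 6 libraries of the GFP+ Pdgfrα+, GFP- Pdgfrα+ and GFP+ Pdgfrα- populations (limma adjusted p = 0.0572 to 0.266). It was also lost under quantile normalization, where the difference was -0.39 (limma adjusted p = 0.220), and without the mean-variance trend (0.189), in a range of 0.000626 to 0.266 over the alternatives. *Igfbp5* in GFP+ Pdgfrα+ cells was 3.45-fold that in GFP+ Pdgfrα- cells (log2 difference 1.79, standard error 0.17, limma adjusted p = 1.49e-05). In GFP+ Pdgfrα- cells it was 13.5-fold that in GFP- Pdgfrα- cells (log2 difference 3.74, limma adjusted p = 5.48e-09). The order GFP- Pdgfrα+, GFP+ Pdgfrα+, GFP+ Pdgfrα-, GFP- Pdgfrα- was the one seen for *Igf2*, with each neighbouring pair called.

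*Igfbp3* encodes the main carrier of IGFs in blood (ENSMUSG00000020427; chromosome 11, 7106089 to 7113926, minus strand). Signal was 243 and 232 for GFP- Pdgfrα+ cells, 151 and 177 for GFP+ Pdgfrα+ cells, 82.4 and 83 for GFP+ Pdgfrα- cells and 5.60 and 11.2 for GFP- Pdgfrα- cells. The populations did not overlap, in the same order as for *Igfbp5*. The Pdgfrα+ neighbours were not called (log2 difference -0.54, 95% interval -1.05 to -0.02, limma adjusted p = 0.250). Without replicate 1 or replicate 2 of GFP- Pdgfrα- cells, which are not in that comparison but share its estimate of spread, the limma adjusted p fell to 0.0354 and 0.0386, in a range of 0.0247 to 0.546 over the alternatives. *Igfbp3* in GFP+ Pdgfrα+ cells was 1.98-fold that in GFP+ Pdgfrα- cells (log2 difference 0.97, limma adjusted p = 0.0105). That call was lost without replicate 2 of GFP+ Pdgfrα+ cells (limma adjusted p = 0.0868) and without replicate 1 or 2 of GFP+ Pdgfrα- cells (0.0813 and 0.0740), in a range of 0.000136 to 0.0868. GFP+ Pdgfrα- cells exceeded GFP- Pdgfrα- cells by 3.22 (limma adjusted p = 2.93e-07).

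*Igfbp7* encodes a relative with weak affinity for IGFs (ENSMUSG00000036256; chromosome 5, 77778265 to 77837070, minus strand). Signal was 261 and 211 for GFP- Pdgfrα+ cells, 151.5 and 150.5 for GFP+ Pdgfrα+ cells, 69.6 and 95.3 for GFP+ Pdgfrα- cells and 7.04 and 12.1 for GFP- Pdgfrα- cells. Again each population was separate from the next. The difference between the Pdgfrα+ populations did not pass the threshold (log2 difference -0.63, 95% interval -1.14 to -0.13, limma adjusted p = 0.156). It passed when replicate 1 or 2 of GFP- Pdgfrα- cells was left out (limma adjusted p = 0.0464 and 0.0483), in a range of 0.0230 to 0.539 over the alternatives. GFP+ Pdgfrα+ against GFP+ Pdgfrα- cells gave 0.88 (limma adjusted p = 0.0160), and this was lost without replicate 1 or 2 of GFP+ Pdgfrα+ cells (0.0745 and 0.0770) or replicate 1 of GFP+ Pdgfrα- cells (0.171) and on rescaling without mitochondrially encoded genes (0.58, limma adjusted p = 0.0711), in a range of 0.00169 to 0.171. The rescaling without mitochondrially encoded genes also moved the median of all genes in that comparison from -0.02 to -0.30. GFP+ Pdgfrα- cells exceeded GFP- Pdgfrα- cells by 3.00 (limma adjusted p = 4.50e-07).

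*Igfbp4* encodes an inhibitory binding protein that the protease PAPP-A cuts (ENSMUSG00000017493; chromosome 11, 98902558 to 98913969, plus strand). Its signal was 286 and 230.4 for GFP+ Pdgfrα+ cells, 244 and 235 for GFP- Pdgfrα+ cells, 61.3 and 73.7 for GFP+ Pdgfrα- cells and 3.88 and 9.79 for GFP- Pdgfrα- cells. Unlike the other binding protein genes, its highest mean was in GFP+ Pdgfrα+ cells, although the Pdgfrα+ libraries overlapped and were not called apart (log2 difference 0.10, 95% interval -0.53 to 0.73, limma adjusted p = 0.902). Without replicate 1 of GFP+ Pdgfrα+ cells this difference changed sign to -0.06. *Igfbp4* in GFP- Pdgfrα+ cells was 3.55-fold that in GFP+ Pdgfrα- cells, a log2 difference of GFP+ Pdgfrα- against GFP- Pdgfrα+ cells of -1.82 (limma adjusted p = 0.000553). In GFP+ Pdgfrα- cells it was 9.88-fold that in GFP- Pdgfrα- cells (log2 difference 3.23, limma adjusted p = 1.52e-06).

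*Igfbp6* encodes the binding protein that prefers IGF2 (ENSMUSG00000023046; chromosome 15, 101974793 to 101979942, plus strand). Signal was 50.8 and 40.5 for GFP- Pdgfrα+ cells and 25.0 and 25.4 for GFP+ Pdgfrα+ cells, and the reads behind it were 0 and 1 for GFP+ Pdgfrα- cells and 2 and 1 for GFP- Pdgfrα- cells. Both Pdgfrα- populations were at the floor, so this gene separated the cells by Pdgfrα whatever their GFP. Against the floor of 3 reads per library, GFP+ Pdgfrα+ cells had at least 28.8-fold more *Igfbp6* than GFP+ Pdgfrα- cells (limma adjusted p = 4.65e-06), and GFP- Pdgfrα+ cells at least 49.9-fold more than GFP- Pdgfrα- cells (limma adjusted p = 1.65e-07). The difference of GFP+ Pdgfrα+ from GFP- Pdgfrα+ cells was not called (log2 difference -0.82, 95% interval -1.60 to -0.05, limma adjusted p = 0.239), but voom called it (-0.85, limma adjusted p = 0.0332), in a range of 0.0332 to 0.582 over the alternatives.

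*Igfbp2* (ENSMUSG00000039323; chromosome 1, 72871077 to 72899048, plus strand) encodes a binding protein of fetal serum, and it was the other gene of low signal. Its reads were 61 and 28 for GFP- Pdgfrα+ cells, 8 and 22 for GFP+ Pdgfrα+ cells, 1 and 5 for GFP+ Pdgfrα- cells and 2 and 2 for GFP- Pdgfrα- cells, a signal of 15.5 and 8.46, 2.35 and 6.47, 0.364 and 1.42, and 0.718 and 0.590. The Pdgfrα+ libraries were the higher, the replicates of a population differed widely, and the Pdgfrα- populations overlapped. In the main fit no neighbours in the order of the means were called apart, and GFP+ Pdgfrα+ against GFP+ Pdgfrα- cells fell just outside the threshold (log2 difference 1.46, standard error 0.50, limma adjusted p = 0.0511). That pair was called without replicate 1 of GFP+ Pdgfrα+ cells (2.04, limma adjusted p = 0.0252), after the filter on low values (0.0464) and in edgeR (2.47, adjusted p = 0.0448), in a range of 0.0252 to 0.311 over the alternatives. *Igfbp2* in GFP- Pdgfrα+ cells reached at least 13.1-fold its level in GFP- Pdgfrα- cells (limma adjusted p = 0.000271). The mean of GFP+ Pdgfrα+ cells was at least 4.82-fold that level (log2 difference 1.60, limma adjusted p = 0.0150), and rests on libraries at 2.35 and 6.47. Without replicate 2 of GFP+ Pdgfrα+ cells the difference was 1.02 and not called (limma adjusted p = 0.134), and the call was also lost without replicate 2 of GFP- Pdgfrα- cells (0.0626), under quantile normalization (0.89, limma adjusted p = 0.138) and under median centring (1.12, limma adjusted p = 0.0683; relative to the median of all genes 1.40, as in the main fit), in a range of 0.00636 to 0.138.

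**Figure D2:**
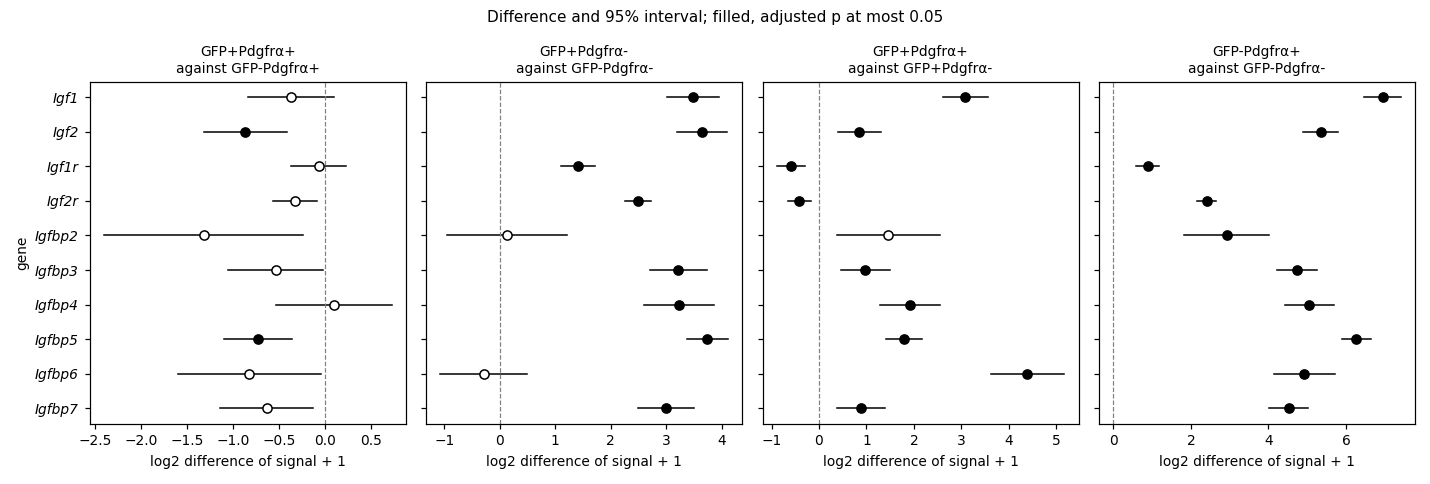
Log2 differences of the 10 genes with 95% intervals in 4 comparisons, filled where limma called them. Quantile normalization changed the sign of 2 differences, that of *Igf2* for GFP+ Pdgfrα+ against GFP+ Pdgfrα- cells and that of *Igfbp2* for GFP+ Pdgfrα- against GFP- Pdgfrα- cells.

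Taken by comparison, GFP+ Pdgfrα+ cells had 2 of the 10 genes called lower than GFP- Pdgfrα+ cells, *Igf2* and *Igfbp5*, where limma called 2.13% of all genes lower. In that comparison limma called 0 of the 10 higher, against 3.22% of all genes, also 0 at an unadjusted p under 0.05 (10.1% of all genes) and 0 in edgeR (3.31%) or voom (3.28%). The number lower was 7 at an unadjusted p under 0.05 (8.5% of all genes), 2 in edgeR (2.31%) and 6 in voom (3.38%), which added *Igf2r*, *Igfbp3*, *Igfbp6* and *Igfbp7*. Without any 1 of the 6 libraries of the GFP+ Pdgfrα+, GFP- Pdgfrα+ and GFP+ Pdgfrα- populations the number called lower was 0, and without replicate 1 or 2 of GFP- Pdgfrα- cells it was 4. The median difference between the Pdgfrα+ populations was -0.58 over the 10 genes beside 0.00 over all genes. GFP+ Pdgfrα- cells had 8 of the 10 higher than GFP- Pdgfrα- cells, beside 30.1% of all genes, and none lower, beside 23.6%. GFP+ Pdgfrα+ cells had 7 of the 10 higher than GFP+ Pdgfrα- cells, beside 13.1%, and the receptor genes, 2 of the 10, lower, beside 11.1%. The total of 9 called became 4 without replicate 2 of GFP+ Pdgfrα+ cells and 5 without replicate 1 or 2 of GFP+ Pdgfrα- cells. The ligand and binding protein genes other than *Igfbp2* were thus higher, and the receptor genes lower, in the Pdgfrα+ of the GFP+ populations, except that *Igf2* was slightly lower (-0.04) under quantile normalization.

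GFP- Pdgfrα+ cells had 10 of the 10 genes higher than GFP- Pdgfrα- cells, beside 32.9% of all genes, and none lower, beside 26.8%. GFP+ Pdgfrα+ cells likewise had 10 of the 10 higher than GFP- Pdgfrα- cells, beside 32.9%, and none lower, beside 26.4%. However, the call of *Igfbp2* was lost under the 4 alternatives named for it above and at an adjusted p of at most 0.01. Across the diagonal, GFP+ Pdgfrα- cells had 1 of the 10, *Igf1r*, higher than GFP- Pdgfrα+ cells, beside 13.5%, and 8 lower, beside 14.3%. For the comparisons with none called lower, the number lower was also 0 at an unadjusted p under 0.05 in limma (25.7% to 28.4% of all genes) and 0 in edgeR (24.4% to 26.8%) and voom (25.8% to 27.7%). These comparisons share libraries and are not independent of each other. The interaction asks whether the GFP difference among Pdgfrα+ cells equals the GFP difference among Pdgfrα- cells. It was called below zero for 8 of the 10 genes, beside 25.2% of all genes, and above zero for none, beside 19.1%; the number above zero was also 0 at an unadjusted p under 0.05 (22.4%) and 0 in edgeR (18.5%) and voom (19%). *Igfbp6* (interaction -0.53, limma adjusted p = 0.422) and *Igfbp2* (-1.46, limma adjusted p = 0.114) did not pass, and without replicate 2 of GFP+ Pdgfrα+ cells the *Igfbp2* term did (-2.04, limma adjusted p = 0.0373, in a range of 0.0373 to 0.340).

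The mix of binding protein transcripts also differed between populations, taken as each gene's share of the summed signal per kb of *Igfbp2* to *Igfbp7*. *Igfbp5* made up 60.6% and 58.2% for GFP- Pdgfrα+ cells, 54.5% and 53.6% for GFP+ Pdgfrα+ cells, 46.5% and 46.2% for GFP+ Pdgfrα- cells and 39.4% and 33.3% for GFP- Pdgfrα- cells. Its share was highest in Pdgfrα+ cells, and no populations overlapped. The share of *Igfbp7* was 17.3% and 17.1%, 16.3% and 17.2%, 25.3% and 28.3%, and 31.5% and 33.2% in the same order, higher in both Pdgfrα- populations than in the Pdgfrα+ populations, which overlapped. *Igfbp4* took 17.9% and 15.2% for GFP+ Pdgfrα+ cells against 9.41% and 11.1% for GFP- Pdgfrα+ cells, 12.9% and 12.7% for GFP+ Pdgfrα- cells and 10.1% and 15.5% for GFP- Pdgfrα- cells. The share of *Igfbp4* thus separated the Pdgfrα+ populations, whose *Igfbp4* signal itself overlapped. The summed signal per kb of the 6 genes was 1241 and 1016 for GFP- Pdgfrα+ cells, 765 and 723 for GFP+ Pdgfrα+ cells, 226 and 278 for GFP+ Pdgfrα- cells and 18.4 and 30.1 for GFP- Pdgfrα- cells. The sum of both ligands stayed above that of the binding proteins throughout, with ratios per kb of 2.25 to 3.96 over the 8 libraries. These shares were not tested.

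**Figure D3:**
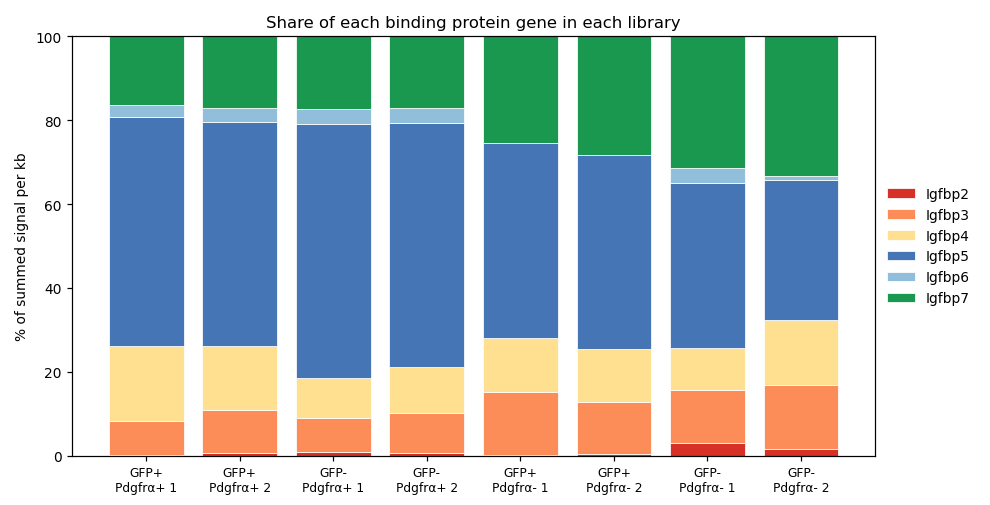
Share of each binding protein gene in the summed signal per kb of the 6 genes, for each library.

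Some of the 10 genes lie near or across other genes. *Igfbp2* and *Igfbp5* face each other on chromosome 1 with 5457 bases between their ends, yet per kb *Igfbp5* was far more abundant in each population. *Igf2* lies 72624 bases from *H19* on chromosome 7, on the same strand. Exons of *Igf2* overlap those of *Igf2as* on the opposite strand, which had a signal of 0.718 to 13.2, and exons of *Igfbp7* overlap *Polr2b* (23.5 to 125) and AC141469.5 (0.121 to 67.6). The libraries were made from amplified, sonicated cDNA with a DNA library kit, which does not mark strand, so reads from the shared positions of an overlapping pair cannot be told apart. *Airn*, which is transcribed against *Igf2r* with no shared exon, had a signal of 89.1 and 89.3 for GFP+ Pdgfrα+ cells, 96.4 and 132 for GFP- Pdgfrα+ cells, 89.2 and 92.2 for GFP+ Pdgfrα- cells and 6.18 and 6.49 for GFP- Pdgfrα- cells. Like *Igf2r*, it was low in GFP- Pdgfrα- cells and higher in the other 3 populations. These genes overlap in position and strand is not marked, so their signals may not be separate.

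Over the 8 libraries, log2(signal + 1) of *Igf2* and *Igfbp3* had a Pearson correlation of 0.998, that of *Igfbp3* and *Igfbp7* 0.996 and that of *Igf1* and *Igfbp5* 0.986. These n = 8 points are pairs of libraries from 4 populations, and the coefficients describe a shared order of the populations. *Igfbp2* and *Igfbp6* had 0.917, and *Igf1r* and *Igfbp6* 0.110, the lowest of the pairs given here. Among 9009 genes with a mean signal of at least 10, the genes closest to *Igf2* were *Timp2* (0.999), *Fcgrt* (0.998) and *Pam* (0.998), and *Timp2* was also closest to *Igfbp7* (0.998). For *Igf1* they were *Arhgap20*, *Prrt2* and *Fmnl2* (0.998 each). *Igfbp5* was closest to *Axl*, *Trps1* and *Sned1* (0.999 each). *Igfbp6*, which was at the floor in both Pdgfrα- populations, was closest to *Elf4* (0.998), *Svil* (0.995) and *Penk* (0.994). *Igf2r* was closest to *Arhgap28* (0.999) and *Igf1r* to *Arhgef2* (0.993).

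Of the binding protein genes, *Igfbp3*, *Igfbp5* and *Igfbp7* shared an order of populations without overlap, which *Igf1* and *Igf2* also had. *Igfbp2* shared the order of means, with overlap, and *Igfbp6* was at the floor in both Pdgfrα- populations. The 250 bases before the transcription starts of *Igfbp3*, *Igfbp5*, *Igfbp7* and *Igfbp6* are therefore shown side by side. These genes and the motifs were chosen after their values were seen. The sequences are RefSeq windows of GRCm38.p6, in which 10 of the 10 genes were found, and each is given on its own strand. Capitals mark matches, on either strand, of TATAAA, which 12.4% of 32851 windows of that length hold, of CCAAT, which 33.8% hold, of GGGCGG, which 32.7% hold, and of TGTGGT, which 14% hold. The *Igfbp3* window (chr11:7213924-7214173, minus strand) holds TGTGGT 1 time, 223 bases before the start, and the *Igfbp5* window (chr1:72874866-72875115, minus strand) holds none of the 4 motifs. In the *Igfbp7* window (chr5:77408046-77408295, minus strand) GGGCGG occurs 4 times. The *Igfbp6* window (chr15:102143936-102144185, plus strand) holds CCAAT 2 times and TATAAA 1 time on the reverse strand. G and C make up 73.2%, 58.8%, 74% and 49.6% of the bases of *Igfbp3*, *Igfbp5*, *Igfbp7* and *Igfbp6*. The motif content of *Igfbp3*, *Igfbp5* and *Igfbp7* was not the same, and a match is a description of letters only.
Igfbp3: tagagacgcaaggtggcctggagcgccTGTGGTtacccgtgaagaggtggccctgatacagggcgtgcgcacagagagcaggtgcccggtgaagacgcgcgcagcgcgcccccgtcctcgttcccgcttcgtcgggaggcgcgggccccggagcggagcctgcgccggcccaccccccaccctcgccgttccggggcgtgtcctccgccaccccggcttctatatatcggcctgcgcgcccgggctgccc
Igfbp5: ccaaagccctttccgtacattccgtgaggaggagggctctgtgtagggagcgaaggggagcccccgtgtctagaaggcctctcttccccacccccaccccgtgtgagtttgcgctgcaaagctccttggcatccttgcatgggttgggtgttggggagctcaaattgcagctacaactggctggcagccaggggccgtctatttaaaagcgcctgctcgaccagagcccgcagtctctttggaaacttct
Igfbp7: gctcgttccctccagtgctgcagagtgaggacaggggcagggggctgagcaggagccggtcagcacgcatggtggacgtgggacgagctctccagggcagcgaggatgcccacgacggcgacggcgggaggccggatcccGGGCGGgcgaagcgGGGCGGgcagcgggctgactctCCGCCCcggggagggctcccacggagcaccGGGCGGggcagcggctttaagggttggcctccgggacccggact
Igfbp6: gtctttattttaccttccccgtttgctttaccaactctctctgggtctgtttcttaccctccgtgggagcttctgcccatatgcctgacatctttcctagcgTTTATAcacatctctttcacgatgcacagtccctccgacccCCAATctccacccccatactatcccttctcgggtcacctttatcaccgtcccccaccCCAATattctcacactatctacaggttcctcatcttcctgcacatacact

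Of 38 other genes of the IGF pathway listed for this purpose, 32 were in the table. Limma called 0 of the 32 higher and 1 lower in GFP+ Pdgfrα+ cells when set against GFP- Pdgfrα+ cells, beside 3.22% and 2.13% of all genes; 4 were higher and 6 lower at an unadjusted p under 0.05 (10.1% and 8.5% of all genes), edgeR called 3 higher and 2 lower (3.31% and 2.31%), and voom 4 and 5 (3.28% and 3.38%). In GFP+ Pdgfrα- against GFP- Pdgfrα- cells 23 were higher and 6 lower, beside 30.1% and 23.6%, and in GFP+ Pdgfrα+ against GFP+ Pdgfrα- cells 13 were higher and 1 lower, beside 13.1% and 11.1%. In GFP- Pdgfrα+ cells 26 were higher and 2 lower than in GFP- Pdgfrα- cells, beside 32.9% and 26.8%, and in GFP+ Pdgfrα+ cells 24 and 3, beside 32.9% and 26.4%. Across the diagonal 1 was higher and 14 lower in GFP+ Pdgfrα- cells when set against GFP- Pdgfrα+ cells, beside 13.5% and 14.3%. The interaction was called above zero for 4 and below zero for 19, beside 19.1% and 25.2%. Without replicate 1 of GFP+ Pdgfrα- cells the number called in GFP+ Pdgfrα+ against GFP+ Pdgfrα- cells was 9, and without replicate 1 or 2 of GFP- Pdgfrα- cells the number called between the Pdgfrα+ populations was 5.

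Among genes of proteases that free IGFs from their binding proteins, *Pappa2*, whose product cuts IGFBP5 and IGFBP3, had a signal of 119 and 94.9 for GFP- Pdgfrα+ cells, 8.42 and 9.06 for GFP+ Pdgfrα+ cells, 0.850 and 0.386 for GFP+ Pdgfrα- cells and 2.15 and 3.89 for GFP- Pdgfrα- cells. It was high in GFP- Pdgfrα+ cells and low in the rest, and was the pathway gene called between the Pdgfrα+ populations (log2 difference -3.46, standard error 0.35, limma adjusted p = 0.000200). *Pappa*, which encodes the protease of IGFBP4, was at 219 and 255 for GFP+ Pdgfrα+ cells, 117 and 164 for GFP- Pdgfrα+ cells, 39.7 and 33.3 for GFP+ Pdgfrα- cells and 1.58 and 2.71 for GFP- Pdgfrα- cells. Its highest signal, like that of *Igfbp4*, was in GFP+ Pdgfrα+ cells, which exceeded GFP+ Pdgfrα- cells by 2.67 (standard error 0.23, limma adjusted p = 7.38e-06). Between the Pdgfrα+ populations *Pappa* was not called (log2 difference 0.77, 95% interval 0.26 to 1.28, limma adjusted p = 0.0828). *Stc2*, whose product inhibits these proteases, was at 20.3 and 23.8 for GFP+ Pdgfrα- cells, 2.62 and 4.74 for GFP+ Pdgfrα+ cells, 4.66 and 4.6 for GFP- Pdgfrα+ cells and 1.58 and 2.24 for GFP- Pdgfrα- cells. It was high in GFP+ Pdgfrα- cells alone of the 4 populations, and GFP+ Pdgfrα+ against GFP+ Pdgfrα- cells gave -2.33 (standard error 0.38, limma adjusted p = 0.000834).

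In the hormone axis, *Ghr*, the growth hormone receptor gene, had a signal of 169 and 188 for GFP+ Pdgfrα+ cells, 219.5 and 218 for GFP- Pdgfrα+ cells, 85.6 and 79.6 for GFP+ Pdgfrα- cells and 8.47 and 5.54 for GFP- Pdgfrα- cells. Its populations ranked as those of *Igf1* did, and GFP+ Pdgfrα+ cells exceeded GFP+ Pdgfrα- cells by 1.1 (limma adjusted p = 0.00102). *Stat5a* and *Stat5b*, which encode factors that act below that receptor, ran the other way: *Stat5a* was at 53.0 and 51.0 for GFP- Pdgfrα- cells and between 8.19 and 17.1 elsewhere, and *Stat5b* at 73.7 and 70.2 and between 24.0 and 39.5 elsewhere. Both were highest in GFP- Pdgfrα- cells, and the differences of GFP+ Pdgfrα- against GFP- Pdgfrα- cells were -1.64 (limma adjusted p = 0.000275) and -1.07 (limma adjusted p = 0.000603). *H19*, the noncoding neighbour of *Igf2*, had a signal of 7132 and 7161 for GFP- Pdgfrα+ cells, 4010 and 4039 for GFP+ Pdgfrα+ cells, 1126 and 1441 for GFP+ Pdgfrα- cells and 117 and 257 for GFP- Pdgfrα- cells. It followed the order of *Igf2* with no overlap, and GFP+ Pdgfrα+ cells exceeded GFP+ Pdgfrα- cells by 1.66 (limma adjusted p = 0.000755). Its difference between the Pdgfrα+ populations, -0.83, was not called (limma adjusted p = 0.103) but was called with the replicate number as a block (limma adjusted p = 0.0414) and without replicate 1 or 2 of GFP- Pdgfrα- cells (0.00194 and 0.00184), in a range of 0.0013 to 0.549.

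Below the receptor, the substrate gene *Irs1* was at 395 and 477 for GFP+ Pdgfrα+ cells, 385 and 398 for GFP- Pdgfrα+ cells, 464 and 485 for GFP+ Pdgfrα- cells and 12.2 and 20.9 for GFP- Pdgfrα- cells. *Grb10*, which encodes an adaptor that dampens the receptor, was at 1135 in both GFP+ Pdgfrα+ libraries, 1469 and 1417 for GFP- Pdgfrα+ cells, 1269 and 1409 for GFP+ Pdgfrα- cells and 156 and 182 for GFP- Pdgfrα- cells. Both resembled *Igf2r* in being low in GFP- Pdgfrα- cells and of similar level elsewhere, with log2 differences of GFP+ Pdgfrα- against GFP- Pdgfrα- cells of 4.81 (limma adjusted p = 2.76e-09) for *Irs1* and 2.98 (limma adjusted p = 2.18e-09) for *Grb10*.

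Genes that mark cell types were read beside these results. *Pdgfra* was at 733 to 839 in the Pdgfrα+ libraries and 3.30 to 18.1 in the Pdgfrα- libraries, and *Nes* at 149 to 176 for GFP+ Pdgfrα- cells, 57.6 to 72.0 for GFP+ Pdgfrα+ cells, 27.4 to 47.1 for GFP- Pdgfrα+ cells and 3.59 to 9.08 for GFP- Pdgfrα- cells. The GFP- Pdgfrα- cells, which had the lowest mean of each of the 10 IGF genes except *Igfbp6*, were sorted without Ter119 yet had the red cell genes. All 5 of 5 in that list were in the table, with a summed signal of 9068 and 15022 for GFP- Pdgfrα- cells, 106 and 61.6 for GFP+ Pdgfrα- cells, 29.1 and 36.9 for GFP+ Pdgfrα+ cells and 40.2 and 34.0 for GFP- Pdgfrα+ cells, led per kb by *Hbb-b1*. The list of 7 of 7 osteoblast genes, led per kb by *Col1a1*, summed to 60755 and 44655 for GFP+ Pdgfrα+ cells, 17303 and 15667 for GFP- Pdgfrα+ cells, 3860 and 3186 for GFP+ Pdgfrα- cells and 549 and 668 for GFP- Pdgfrα- cells, where *Bglap* was at the floor. *Col1a1* made up most of these sums, and 5 of the 7, *Ibsp* (143 against 49.9), *Spp1* (443.5 against 230.6), *Dmp1* (39.4 against 5.19), *Bglap* (4.24 against 1.47) and *Alpl* (31.9 against 30.1), had a higher mean in GFP+ Pdgfrα- cells than in the GFP- Pdgfrα+ population. For *Alpl* the libraries of these populations overlapped (29.46 to 34.36 against 25.69 to 34.42). The 5 of 5 niche stroma genes, led per kb by *Cxcl12*, summed to 1154 and 989 for GFP+ Pdgfrα+ cells, 342 and 305 for GFP- Pdgfrα+ cells, 187 and 219 for GFP+ Pdgfrα- cells and 30.6 and 43.5 for GFP- Pdgfrα- cells. *Vcam1* alone of these niche genes had a higher mean in GFP+ Pdgfrα- cells (101.4) than in GFP- Pdgfrα+ cells (27.2). The part of these cell types in the results was not tested.

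Other lists of markers were summed in the same way. Skeletal muscle genes (8 of 8, led per kb by *Myog*) summed to 772 and 779 for GFP+ Pdgfrα- cells, 45.3 and 55.8 for GFP+ Pdgfrα+ cells, 22.4 and 19.3 for GFP- Pdgfrα+ cells and 19.5 and 11.1 for GFP- Pdgfrα- cells, with *Myod1* and *Myf5* at the floor in both GFP- populations, *Pax7* and *Myog* in GFP- Pdgfrα+ cells and *Tnnt1* and *Ckm* in GFP- Pdgfrα- cells. Pericyte and smooth muscle genes (6 of 6, led per kb by *Acta2*) summed to 2080 and 2724 for GFP+ Pdgfrα- cells against 649 and 554 for GFP+ Pdgfrα+ cells, 481 and 497 for GFP- Pdgfrα+ cells and 74.4 and 123 for GFP- Pdgfrα- cells, but of these genes *Cspg4* had its highest mean in GFP- Pdgfrα+ cells (257 against 125 for GFP+ Pdgfrα- cells) and *Pdgfrb* in GFP+ Pdgfrα+ cells (165 against 135). Tendon and perichondrium genes (4 of 4, led per kb by *Tnmd*) marked GFP- Pdgfrα+ cells, where *Pappa2* was high, at 570 and 509 against 41.2 and 42.8 for GFP+ Pdgfrα+ cells, 9.96 and 9.52 for GFP+ Pdgfrα- cells and 28.4 and 29.9 for GFP- Pdgfrα- cells, with *Scx* at the floor in GFP+ Pdgfrα+ and GFP- Pdgfrα- cells and *Kera* in GFP+ Pdgfrα- cells. Cartilage genes (6 of 6, led per kb by *Col2a1*) summed to 540.1 and 1881 for GFP- Pdgfrα+ cells, 289 and 366 for GFP+ Pdgfrα+ cells, 67.3 and 96.5 for GFP+ Pdgfrα- cells and 493 and 906 for GFP- Pdgfrα- cells, and *Matn1* was at the floor in the other 3 populations. *Sox9* alone of these cartilage genes had its lowest mean in GFP- Pdgfrα- cells (9.745). Its mean was 34.01 for GFP+ Pdgfrα+ cells and 32.2 for GFP+ Pdgfrα- cells. Endothelial genes (7 of 8, led per kb by *Cdh5*) lay at 34.3 to 122 over the 8 libraries. White blood cell genes (7 of 7, led per kb by *S100a9*) had their highest sums, 73.7 and 68.5, in GFP- Pdgfrα- cells. The sums were 32.7 and 31.5 for GFP+ Pdgfrα- cells, 5.94 and 21.7 for GFP+ Pdgfrα+ cells and 26.35 and 12.92 for GFP- Pdgfrα+ cells. *Esam* was at the floor in both Pdgfrα+ populations, and *Emcn*, *Ptprc* and *Csf1r* in GFP- Pdgfrα+ cells. The part of these cell types in the levels of the IGF genes was not tested.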

How the data were processed

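The signal per gene and library was taken from the deposited table. The authors trimmed reads with cutadapt, quantified them on NCBIM37 with RSEM 1.17 and normalized with voom of limma; dividing out a step of 1 read gave whole reads for 100% of the values (tolerance 0.01). Reads per library were 3221217 to 5302762, with a median of 3604130, and the common biological coefficient of variation was 0.188. On the recovered reads, edgeR 4.0.16 called 893 genes in GFP+ Pdgfrα+ against GFP- Pdgfrα+ cells, 8415 in GFP+ Pdgfrα- against GFP- Pdgfrα-, 3586 in GFP+ Pdgfrα+ against GFP+ Pdgfrα-, 9281 in GFP- Pdgfrα+ against GFP- Pdgfrα-, 4182 in GFP+ Pdgfrα- against GFP- Pdgfrα+, 9240 in GFP+ Pdgfrα+ against GFP- Pdgfrα- and 6644 for the interaction.

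The fit used lmFit and eBayes (trend on) of limma 3.58.1, run in R 4.3.3 on log2(value + 1), with a coefficient for each population, 4 residual degrees of freedom and Benjamini–Hochberg adjustment over 15880 genes. All of the 10 IGF genes pass a filter of a value over 2 in at least 2 libraries, as 14333 genes do, but no filter was applied. Python 3.11.15, numpy 2.4.6, pandas 2.3.3 and matplotlib 3.10.9 made tables and figures. The fits were tested on simulated data. Because the study's design text describes each set of samples as pooled littermates, the replicate number was read as a shared pool; deviations of same-numbered libraries were correlated at 0.00 to 0.08, and a fit with this block is among the alternatives. The others changed the libraries in the fit, the pseudocount (0.1), filter, trend, scaling, test, threshold or gene length, or left out 1 library.

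The members and lists were chosen with earlier results of these data known. The rule for names takes all 10 genes, pathway genes called in at least 1 pairwise comparison, the 3 most similar genes of a member with a mean of at least 10, and listed markers, of which some results are not reported here.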

Additional observations from a re-analysis of the deposited data

Results flagged for a closer look

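For 8 of the 10 genes, the GFP difference among Pdgfrα+ cells differed from the GFP difference among Pdgfrα- cells by the interaction term of limma, each with a term below zero. Over all 15880 genes 25.2% were called below zero and 19.1% above. For the ligands the term was -4.51 for *Igf2* (standard error 0.29, limma adjusted p = 2.65e-07) and -3.86 for *Igf1* (standard error 0.30, limma adjusted p = 1.25e-06). *Igf2* was lower in GFP+ than in GFP- cells where Pdgfrα was present (-0.86) and higher where it was absent (3.64). For *Igf1* these differences were -0.37, which was not called, and 3.49. The receptor genes had terms of -2.82 for *Igf2r* (limma adjusted p = 8.26e-08) and -1.48 for *Igf1r* (limma adjusted p = 7.17e-05). Among Pdgfrα+ cells their GFP differences were -0.33 and -0.06, neither called. Among Pdgfrα- cells they were 2.49 and 1.41, both called. Among binding proteins the term was -4.47 for *Igfbp5*, -3.76 for *Igfbp3*, -3.64 for *Igfbp7* and -3.14 for *Igfbp4*, with limma adjusted p-values of 6.99e-08, 3.22e-06, 3.55e-06 and 6.47e-05. *Igfbp3*, *Igfbp7* and *Igfbp4* were not called among Pdgfrα+ cells (-0.54, -0.63 and 0.10) and were higher with GFP among Pdgfrα- cells (3.22, 3.00 and 3.23). All 8 genes had their lowest mean in GFP- Pdgfrα- cells, which enter every term. The summed red cell signal of that population was 9068 and 15022, and its part in the terms was not tested. *Igfbp5* was, like *Igf2*, called lower with GFP among Pdgfrα+ cells (-0.73) and higher among Pdgfrα- cells (3.74), although the former call was lost without any 1 of the 6 libraries of the GFP+ Pdgfrα+, GFP- Pdgfrα+ and GFP+ Pdgfrα- populations (limma adjusted p = 0.0852 to 0.213 for *Igf2* and 0.0572 to 0.266 for *Igfbp5*, in ranges of 0.000108 to 0.213 and 0.000626 to 0.266 over the alternatives). The median interaction of all genes was -0.16, and relative to it the terms of these 8 genes were -4.35 to -1.32. Each of the 8 terms remained called under each of the 19 alternatives that could be run for it.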

How the results depend on the processing

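The number of the 10 genes called stayed within 1.5-fold under each alternative for 5 of the 7 comparisons: leaving out 1 library gave 8 to 8 for GFP+ Pdgfrα- against GFP- Pdgfrα- cells, 10 to 10 for GFP- Pdgfrα+ against GFP- Pdgfrα-, 8 to 9 for GFP+ Pdgfrα- against GFP- Pdgfrα+, 9 to 10 for GFP+ Pdgfrα+ against GFP- Pdgfrα-, and for the interaction 8 to 9. For GFP+ Pdgfrα+ against GFP- Pdgfrα+ cells, with 2 called, the number was 1 with a pseudocount of 0.1 or quantile normalization, 0 without the mean-variance trend, 6 with voom on recovered reads and 0 at an adjusted p of at most 0.01, where a stricter threshold can only lower it. It was 4 without both GFP- Pdgfrα- libraries in the fit, an alternative chosen after seeing the data, and 0 to 4 when 1 library was left out. For GFP+ Pdgfrα+ against GFP+ Pdgfrα- cells, with 9 called, it was 4 without the trend, when *Igf2*, *Igf1r*, *Igf2r*, *Igfbp3* and *Igfbp7* lost their calls, 5 at 0.01 and 4 to 9 when 1 library was left out. With the replicate block the numbers were 2 for GFP+ Pdgfrα+ against GFP- Pdgfrα+ and 9 for GFP+ Pdgfrα+ against GFP+ Pdgfrα- cells, while pathway genes called between the Pdgfrα+ populations went from 1 to 2. Where not stated, the cause was not tested. Signs reversed for differences that were not called: *Igfbp4* in GFP+ Pdgfrα+ against GFP- Pdgfrα+ cells (-0.058 to 0.25 when 1 library was left out, the former without replicate 1 of GFP+ Pdgfrα+ cells), *Igf1r* in the same comparison (-0.15 to 0.021, the latter without replicate 2 of GFP- Pdgfrα+ cells), *Igfbp2* in GFP+ Pdgfrα- against GFP- Pdgfrα- cells (-0.49 under quantile normalization, -0.32 under median centring, where it was -0.018 relative to the median of all genes as in the main fit, -0.28 to 0.55 when 1 library was left out, the former without replicate 2 of GFP+ Pdgfrα- cells) and the interaction of *Igfbp6* (0.048 with a pseudocount of 0.1, 0.42 with voom, 0.62 with edgeR). The called *Igf2* difference of GFP+ Pdgfrα+ against GFP+ Pdgfrα- cells reversed to -0.040 under quantile normalization. Median centring moved the share of calls of all genes that were higher from 56.1% to 38.9% in GFP+ Pdgfrα- against GFP- Pdgfrα- cells, 55.2% to 40.6% in GFP- Pdgfrα+ against GFP- Pdgfrα-, 55.5% to 39.6% in GFP+ Pdgfrα+ against GFP- Pdgfrα- and 43.1% to 59.7% for the interaction, and rescaling without mitochondrially encoded genes moved it from 54.0% to 30.8% in GFP+ Pdgfrα+ against GFP+ Pdgfrα- and 48.6% to 68.3% in GFP+ Pdgfrα- against GFP- Pdgfrα+ cells. The exon union as gene length moved 17 of 40 levels per kb by more than the spread between replicates, which follows from the longer length, and kept 23 within it.

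With 2 libraries per population, a fit that leaves out 1 library assumes that the lone library varies like the other groups. At 0 to 5 reads, *Igfbp2* and *Igfbp6* are limited by counting in Pdgfrα- cells, and log2(value + 1) understates their change. The replicate number cannot separate pool from other differences between sorts.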
